A study of Mus musculus with 9 samples.

Results

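Heat shock and ER chaperone genes were followed in RAW264.7 cells, a mouse macrophage line, across 9 RNA-seq libraries. The 40 genes were taken by name from a list of 16 heat shock and mitochondrial chaperone genes and 24 endoplasmic reticulum (ER) genes, out of 54532 genes measured, and all 40 were found. The libraries fell into 3 groups of 3, with n = 3 behind every mean ± SD given here. The control group was untreated, the LPS group received lipopolysaccharide, a bacterial cell wall product that macrophages sense through Toll-like receptor signaling, at 1 μg/ml for 6 h, and the LPS + G-CDs group received the same LPS together with G-CDs at 400 μg/ml for 6 h. G-CDs are carbon dots, nanoparticles prepared from the plant Glycyrrhiza. All groups are of the same line and carry the label WT for genotype. The treatment label of the third group names LPS alone and only its sample titles name G-CDs, while the design text gives the combined treatment. The labels name ascites as the source and do not say whether the 3 libraries of a group came from separate cultures, so the spread between them may be technical. No group received G-CDs without LPS.

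Cells answer misfolded protein with separate programs in separate compartments. In the cytosol and nucleus, the transcription factor HSF1 binds heat shock elements and raises HSP70, HSP90 and their cochaperones. In the ER, the sensors IRE1, ATF6 and PERK respond to unfolded proteins, and spliced XBP1 and cleaved ATF6 raise BiP, protein disulfide isomerases and the machinery of ER-associated degradation (ERAD), which moves misfolded proteins to the cytosol for breakdown. Macrophages stimulated with LPS make large amounts of secreted protein, and parts of the ER program are known to be engaged by Toll-like receptor signaling.

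Promoter motifs of the ER stress response were found in ER genes and not in heat shock genes. Promoter windows of 300 bases around RefSeq start sites on GRCm38.p6 were given for 31 of the 40 genes, 11 heat shock and 20 ER genes, and both strands were searched. Hspa8, Hsp90aa1, Hsp90ab1, Hspa9, Hsf1, Hyou1, Manf, Atf6 and Derl1 had no window and were not searched. The ER stress response element (ERSE), CCAAT and CCACG with 9 bases of any kind between them, is bound by ATF6 together with NF-Y. It was found in 8 of 20 ER genes, 0 of 11 heat shock genes and 0.119% of all 32851 windows. The shorter ERSE-II, ATTGG and CCACG with 1 base between them, was found in 2 further ER genes, 0 heat shock genes and 0.0365% of all windows. The matches are shown to set them beside the response of the genes that carry them, each on the strand on which it reads 5′ to 3′, with the fixed letters in capitals.
Hspa5 ERSE, chr2:34772020-34772048, plus strand: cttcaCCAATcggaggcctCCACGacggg
Syvn1 ERSE, chr19:6046527-6046555, plus strand: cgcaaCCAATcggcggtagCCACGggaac
Hsp90b1 ERSE, chr10:86705528-86705556, plus strand: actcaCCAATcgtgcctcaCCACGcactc
Hsp90b1 second ERSE, chr10:86705633-86705661, minus strand: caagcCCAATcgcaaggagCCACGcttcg
Calr ERSE, chr8:84847070-84847098, plus strand: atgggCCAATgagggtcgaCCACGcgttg
Canx ERSE, chr11:50325795-50325823, minus strand: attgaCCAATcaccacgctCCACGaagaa
Creld2 ERSE, chr15:88819515-88819543, minus strand: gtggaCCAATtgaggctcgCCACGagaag
Dnajc3 ERSE, chr14:118937822-118937850, plus strand: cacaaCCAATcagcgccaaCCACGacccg
Pdia6 ERSE, chr12:17266486-17266514, plus strand: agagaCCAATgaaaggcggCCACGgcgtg
Herpud1 ERSE-II, chr8:94386368-94386396, plus strand: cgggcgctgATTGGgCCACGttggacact
Dnajb11 ERSE-II, chr16:22857843-22857871, plus strand: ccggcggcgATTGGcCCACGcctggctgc
The windows of Hspa5 and Dnajb11 lie over an exon of their own gene in GENCODE release 21, the Dnajb11 match also downstream of the RefSeq start site, and the other 9 lie upstream of the annotated exons. The XBP1 motif TGACGTGG was in none of the 31 promoters and in 0.676% of all windows.

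Heat shock elements are inverted repeats of the unit GAA. A run of 3 units, GAANNTTC followed after 2 bases of any kind by a further GAA, was found in Hspd1, Hspe1 and Hsph1 and in 0.603% of all windows. A pair of units, GAANNTTC, which the longer motif contains, was found in 8 of 11 heat shock genes (Bag3, Dnaja1, Hspa1a, Hspa1b, Hspb1, Hspd1, Hspe1 and Hsph1), 0 of 20 ER genes and 7.86% of all windows. Examples are shown because Hspd1 and Hspe1 share their match between them, and because Hspa1b and Hspa1a have the same letters here.
Hspd1 and Hspe1 heat shock element, chr1:55088051-55088079, minus strand: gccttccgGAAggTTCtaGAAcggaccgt
Hspa1b heat shock element, chr17:34959324-34959353, minus strand: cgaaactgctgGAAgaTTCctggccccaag
Dnaja1 heat shock element, chr4:40722333-40722362, plus strand: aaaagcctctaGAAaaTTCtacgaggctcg
The promoters of Hspa1a and Hspa1b differed at 4 of 300 bases. The Hspd1 and Dnaja1 matches lie over an annotated exon of their own gene. Hspd1 and Hspe1 are transcribed away from each other from this shared stretch, and their gene models overlap. A motif match is a description of letters and was not tested as a binding site.

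Expression was given as FPKM, the fragments of each gene divided by its length and by a size for each library. The size recovered from the values was 1.11 to 1.14 times the reads on genes in control. It was 0.929 to 0.936 times in LPS and 0.88 to 0.98 times in LPS + G-CDs, and the reason was not tested. Levels are compared between genes with limits, since some genes share sequence with others. The length used can also exceed the longest transcript, as for Hsf1 with 7099 against 3133 bases. The 9 libraries held 14752400 to 17312255 reads on genes, as recovered from the FPKM values. All 8 macrophage markers examined reached 1 FPKM in every library, while markers of fibroblasts, hepatocytes, epithelial, T and B cells stayed under 0.5 FPKM. Markers of neutrophils and endothelium reached at most 2.15 and 0.861 FPKM, with the neutrophil genes Ly6g and Elane at 0 in all libraries. The LPS libraries resembled each other most, with a median replicate SD of 0.0867 on the log2 scale over the genes tested, against 0.244 in control and 0.259 in LPS + G-CDs. Of the 40 genes, 38 reached 1 FPKM in at least 3 libraries and were tested among 11585 genes with limma on log2(FPKM + 1). A gene was called at an adjusted p under 0.05. Gene positions are those of the deposited table, on GRCm38. On this scale the change of a weakly expressed gene appears smaller than it is.

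The genes with the highest levels in control cells were Hsp90ab1, the constitutive cytosolic HSP90, at 1158 ± 61.2 FPKM, followed by P4hb, a protein disulfide isomerase, at 607 ± 63.7, Hspa5, which encodes BiP, at 546 ± 106, and Hspa8, the constitutive HSP70, at 545 ± 170. The ranges of P4hb, Hspa5 and Hspa8 overlapped in control cells. In the LPS group the order was Hsp90ab1 at 1561 ± 45.6, Hspa8 at 1100 ± 3.76, Hspa5 at 937 ± 13.3 and P4hb at 610 ± 3.61 FPKM, with no overlap between neighbors. The same order held for the means of the LPS + G-CDs group, in which the ranges of Hsp90ab1 and Hspa8 overlapped, as did those of Hspa8 and Hspa5. At the low end, Hspa1b, Dnajb4 and Ern1 stayed under 8 FPKM in every library, as did Hspa1a and Hspb1, which were not tested.

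LPS treatment was first compared with control. It raised 4 of 14 tested heat shock genes, which were Hspa1b, Hspa8, Hsp90aa1 and Bag3, and 4 of 24 ER genes, which were Hspa5, Dnajb9, Herpud1 and Syvn1. None of the 38 was called lower in the fit without a replicate block or by voom on the recovered reads. Voom kept the library sizes behind the FPKM values, so it does not test their scaling. With replicate number as a block Sdf2l1 was called lower, and other scalings called ER genes lower, as given below. At an unadjusted p under 0.05, 11 of the 38 were higher and 2 lower, against 41.9% of all genes in either direction. These 8 genes are 21.1% of the 38, against 31.3% of all genes tested. In the upward direction alone the share for all genes was 15.8%. The median difference was 0.33 on the log2 scale over the heat shock genes and 0.08 over the ER genes, against 0.02 over all genes tested. With single libraries left out these ran from 0.331 to 0.343 for heat shock and from 0.0247 to 0.113 for ER genes. The libraries did not overlap between the groups for 10 higher and 0 lower heat shock genes and for 6 higher and 6 lower ER genes, where 27.4% of all genes were higher and 25.1% lower without overlap. The calls depended on scaling. Of the heat shock genes only Hspa1b and Hspa8 were called with TPM and with quantile scaling, and the heat shock median was 0.11 and 0.18. Among the ER genes TPM gave 4 higher and 5 lower, and quantile scaling 3 higher and 4 lower. With TPM the ER median was -0.19, still above the median of all genes at -0.23, while with quantile scaling it was -0.25, below that of all genes at -0.06. TPM scaling also moved the genes called in all from 1827 higher and 1803 lower to 1003 higher and 3059 lower. The deposited FPKM values summed to between 271284 and 314327 in the control libraries and between 347815 and 349699 in the LPS libraries.

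**Figure D1:**
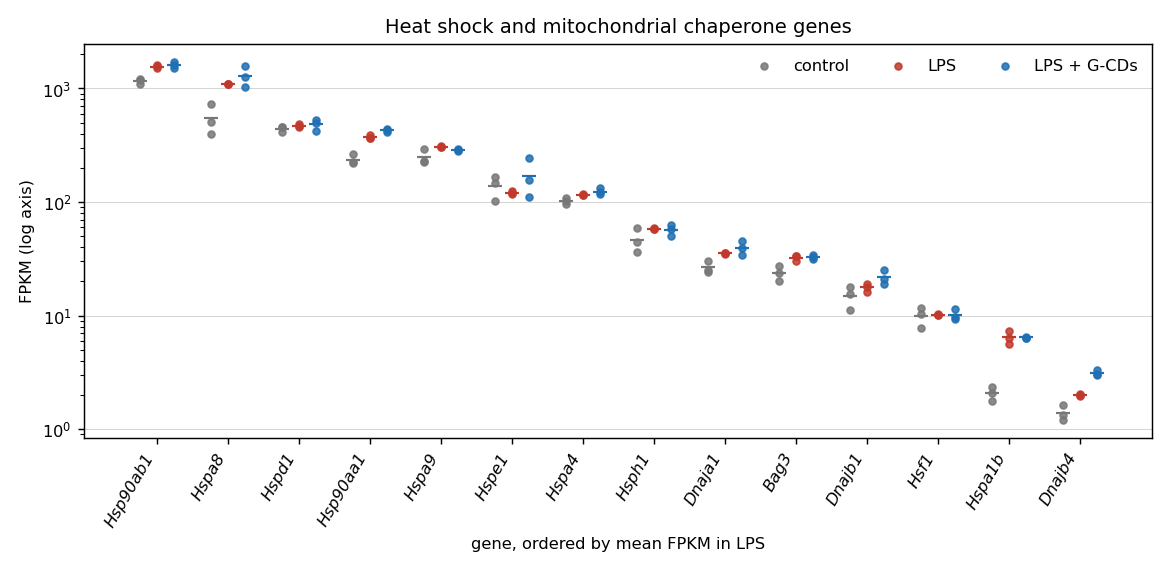
FPKM on a log axis for the 14 tested heat shock and mitochondrial chaperone genes, ordered by their mean in LPS, with 1 point per library and a dash at the mean of each group of 3. Hspa1b, Hspa8, Hsp90aa1, Hsp90ab1, Hspa4, Dnaja1, Bag3 and Dnajb4 lie lower in control than in both treated groups, without overlap. Dnajb4 is highest in LPS + G-CDs, at 2.98 to 3.35 FPKM.

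Among the cytosolic HSP70 genes, the stress-inducible Hspa1b (chr17:34956436-34959238, minus strand) was at 1.77, 2.35 and 2.08 FPKM in the control libraries and at 7.36, 5.61 and 6.41 in the LPS libraries. Every LPS library exceeded every control library, by 3.12-fold between the means. The difference was 1.28 ± 0.125 (SE) on the log2 scale with an adjusted p of 8.3e-05, and it was called in 21 of 21 alternative analyses. Hspa1b shares 62.3% of its 50-base words with its neighboring copy Hspa1a, so the split of reads between the 2 genes is uncertain. Hspa1a was not tested, since it had 1, 0 and 0 reads in control, 0, 1 and 2 in LPS and 1, 8 and 11 in LPS + G-CDs.

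Hspa8 (chr9:40800984-40810087, plus strand) folds new proteins and uncoats clathrin vesicles in unstressed cells. It was at 395, 511 and 729 FPKM in control and at 1099, 1105 and 1098 in LPS. The control libraries spread widely and the LPS libraries hardly at all, without overlap. The difference was 1.06 ± 0.254 with an adjusted p of 0.0126, which became 0.0791 without the filter on low values. With quantile scaling the difference was 0.52, still called. Hspa8 shares 52.7% of its words with 15 other genes, among them Gm15459. Hspa4 and Hsph1, of the HSP110 group that exchanges nucleotide on HSP70, were at 102 ± 6.85 and 46.8 ± 11.5 FPKM in control and at 116 ± 0.333 and 58.1 ± 0.693 in LPS. Neither was called, with adjusted p of 0.26 and 0.19.

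The inducible HSP90 gene Hsp90aa1 (chr12:110690605-110702728, minus strand) was at 263, 221 and 224 FPKM in control and at 364, 390 and 364 in LPS. The groups did not overlap, and the difference was 0.66 ± 0.136 with an adjusted p of 0.00604. Of its words, 58.5% occur in other genes, most of them in Gm12346. Scaling ended this call, since the adjusted p was 0.0744 with TPM and 0.258 with quantile scaling. Relative to the median of all genes the difference was 0.62 with TPM and 0.39 with quantile scaling, against 0.64 for the FPKM values. Hsp90ab1 was at 1179, 1089 and 1206 FPKM in control and at 1603, 1512 and 1567 in LPS. All LPS libraries were higher, but the difference of 0.43 was not called, with an adjusted p of 0.0807. Quantile scaling turned it to -0.28, while 4 of 21 alternatives called it higher, with an adjusted p down to 0.00496 with the length trend removed.

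Cochaperones direct HSP70 to its clients. Bag3 (chr7:128523616-128546981, plus strand), which links HSP70 to selective autophagy, was at 20.1, 23.9 and 27.2 FPKM in control and at 33.2, 33.4 and 30.3 in LPS. The difference was 0.44 ± 0.13 with an adjusted p of 0.0309, and it was called in 13 of 21 alternatives. The call was lost without control replicate 1 or 2, any LPS replicate or LPS + G-CDs replicate 2, with adjusted p of 0.0585 to 0.108, and with TPM and quantile scaling. Relative to the median of all genes its difference was 0.42 with TPM and 0.38 with quantile scaling, against 0.42 for the FPKM values. The J-domain gene Dnaja1 was at 24.2, 25.5 and 30.6 FPKM in control and at 35.7, 34.9 and 35.8 in LPS. Its difference of 0.40 had an adjusted p of 0.0559, and with replicate number as a block it passed, with an adjusted p of 0.0371. Dnaja1 shares 28.8% of its words with other genes and its model overlaps Smu1. Dnajb4 was at 1.39 ± 0.22 FPKM in control and 2.003 ± 0.0335 in LPS, with a difference of 0.33 and an adjusted p of 0.0573. Dnajb1, the J-domain partner of stress-induced HSP70, was at 14.8 ± 3.4 and 17.8 ± 1.42 FPKM, with overlapping libraries.

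The mitochondrial chaperones gave no call. Hspa9, the mitochondrial HSP70, was at 249.1 ± 36 FPKM in control and 307 ± 4.14 in LPS, with an adjusted p of 0.135. Hspd1, the HSP60 that forms the folding chamber, was at 440 ± 25.2 and 471 ± 12.1 FPKM, and Hspe1, its lid, at 139 ± 32.9 and 121 ± 3.11. Hspd1 shares 44.8% of its words with other genes. Hsf1, the transcription factor itself, was at 9.87 ± 1.92 FPKM in control and 10.2 ± 0.0997 in LPS, and the 95% interval of its difference ran from -0.27 to 0.39. The small heat shock gene Hspb1 was not tested, since no library exceeded 0.49 FPKM, or 9 reads.

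**Figure D2:**
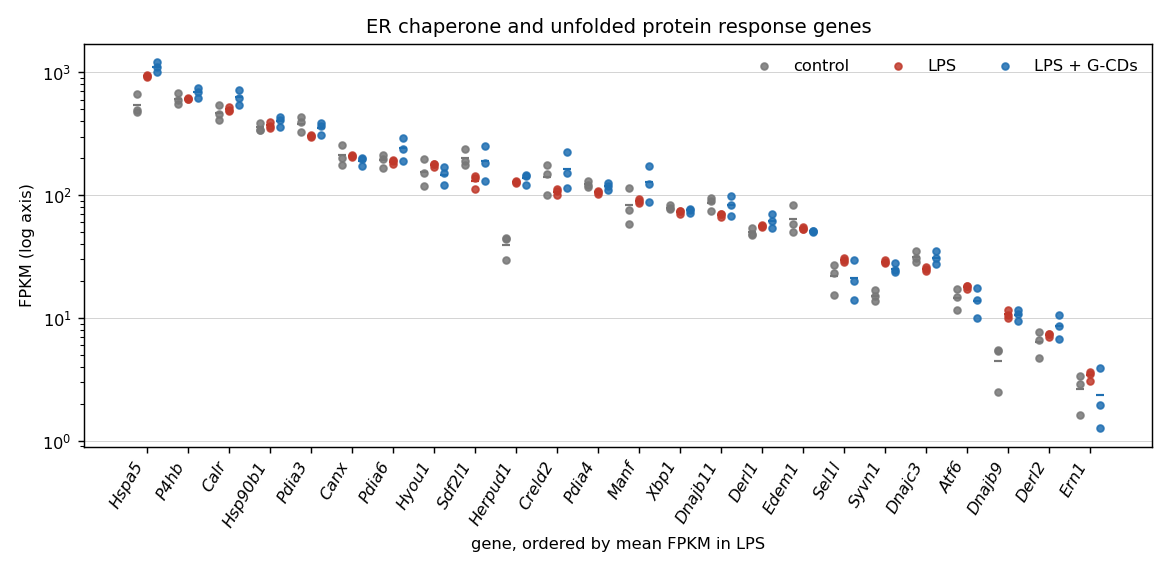
FPKM on a log axis for the 24 ER chaperone and unfolded protein response genes, ordered by their mean in LPS, with 1 point per library and a dash at the mean of each group of 3. Hspa5, Herpud1, Syvn1 and Dnajb9 lie lower in control than in both treated groups, as does Derl1 by a smaller margin.

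In the ER, Herpud1 (chr8:94386438-94395377, plus strand) showed the largest difference of the 38 genes. It encodes a membrane protein that organizes the ERAD complex. Its levels were 29.7, 43.7 and 44.9 FPKM in control and 125, 131 and 129 in LPS, which is 3.25-fold between the means. The difference was 1.70 ± 0.172 with an adjusted p of 0.000102. Syvn1 (chr19:6046576-6053712, plus strand), the ubiquitin ligase HRD1 at the center of the same complex, was at 13.7, 16.8 and 15.0 FPKM in control and at 28.5, 28.0 and 29.8 in LPS. The groups were far apart, with a difference of 0.88 ± 0.117 and an adjusted p of 0.000512. Both genes were called in 21 of 21 alternatives.

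The other ERAD genes were not called. Sel1l, the scaffold that holds Syvn1, was at 21.8 ± 5.94 FPKM in control and 29.6 ± 1.12 in LPS, with an adjusted p of 0.239. Edem1, which marks glycoproteins for removal, was at 64.1 ± 17.3 and 53.5 ± 0.872. Derl1 and Derl2, channel subunits, were at 49.8 ± 3.48 and 6.36 ± 1.49 FPKM in control and at 56.3 ± 1.33 and 7.26 ± 0.243 in LPS.

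Hspa5 (chr2:34771970-34777547, plus strand) encodes BiP, the HSP70 of the ER lumen that also holds the sensors inactive. It was at 668, 493 and 478 FPKM in control and at 938, 923 and 950 in LPS. No library overlapped, and the difference was 0.79 ± 0.185 with an adjusted p of 0.0108. Quantile scaling ended this call, with a difference of 0.34 and an adjusted p of 0.347, and the adjusted p was 0.0503 without LPS replicate 3 and 0.0914 without the filter on low values. Dnajb9 (chr12:44205559-44210326, minus strand), the cochaperone ERdj4 that recruits BiP to IRE1, was at 2.51, 5.53 and 5.35 FPKM in control and at 10.6, 11.6 and 10.01 in LPS. The lowest LPS library was above the highest control library, with a difference of 1.15 ± 0.224 and an adjusted p of 0.00444.

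The large folding chaperones of the ER showed small differences. Hsp90b1, the ER HSP90, was at 356 ± 28.9 FPKM in control and 370 ± 21.2 in LPS. The lectin chaperones Calr and Canx were at 469 ± 66.7 and 211 ± 41.5 FPKM in control and at 501 ± 19.6 and 207 ± 3.98 in LPS. Hyou1, the ER member of the HSP110 group, was at 155 ± 38.6 and 176 ± 5.77. None of these was called, and the 95% intervals of Hsp90b1 (-0.27 to 0.39) and Canx (-0.38 to 0.36) still allow differences of that size in either direction.

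Of the 24 ER genes, 6 had lower values in every LPS library than in any control library without passing the test, where 25.1% of all genes tested were lower without overlap. The disulfide isomerases Pdia3 and Pdia4 were at 383 ± 53.2 and 123 ± 7.39 FPKM in control and at 302 ± 5.42 and 105 ± 3.26 in LPS, with adjusted p of 0.157 and 0.2. The BiP cochaperones Dnajb11 and Dnajc3 were at 86.1 ± 10.6 and 31.5 ± 3.52 FPKM in control and at 69.0 ± 1.84 and 25.0 ± 0.826 in LPS, with adjusted p of 0.184 and 0.0985. Sdf2l1, a partner of Dnajb11 in the ER, was at 190, 175 and 238 FPKM in control and at 138, 111 and 143 in LPS. Its difference was -0.61 ± 0.243 with an adjusted p of 0.0887, which became 0.0445 with replicate number as a block, and it was called lower in 7 of 21 alternatives. Dnajc3 was called lower in 3 of 21. Under TPM scaling Pdia3, Dnajb11, Dnajc3, Sdf2l1 and Creld2 were called lower, and under quantile scaling the first 4 of these were. Relative to the median of all genes, the TPM differences of the 5 ran from -0.65 for Sdf2l1 to -0.35 for Dnajb11.

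The remaining isomerases, P4hb and Pdia6, differed by 0.01 and -0.04. Creld2 and Manf, secreted products of the ER stress response, were at 142 ± 38.3 and 82.7 ± 28.5 FPKM in control and at 107 ± 5.91 and 89.6 ± 3.16 in LPS. Of the regulators, Xbp1 was at 83.3, 76.6 and 77.9 FPKM in control and at 74.7, 70.5 and 74.9 in LPS, lower without overlap by 0.11 with an adjusted p of 0.482. FPKM per gene does not separate spliced from unspliced Xbp1 RNA. Ern1, the gene of IRE1, was at 2.62 ± 0.901 and 3.42 ± 0.291 FPKM, and Atf6 at 14.5 ± 2.85 and 17.8 ± 0.622, neither called.

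**Figure D3:**
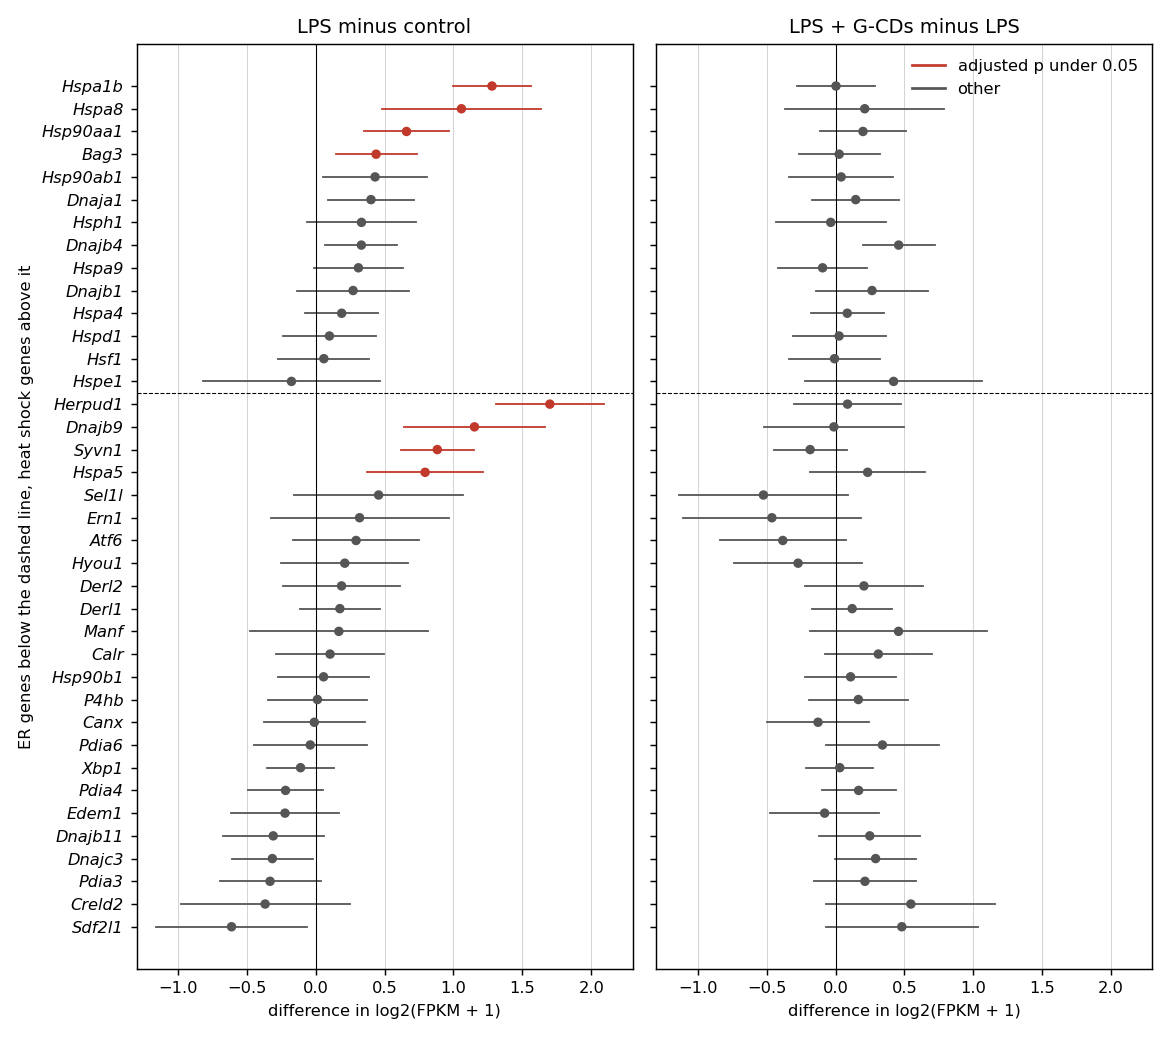
Differences in log2(FPKM + 1) with 95% intervals from limma for the 38 tested genes, LPS minus control on the left and LPS + G-CDs minus LPS on the right, with heat shock genes above the dashed line and ER genes below it. The 8 genes in red on the left had an adjusted p under 0.05, and no gene is red on the right.

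The genes with an ERSE or ERSE-II differed in their calls. Over all genes tested, 31.3% were called. Of the 10, Hspa5, Syvn1 and Herpud1 were called higher in LPS (15.8% of all genes tested were), while Hsp90b1, Calr, Canx, Creld2, Dnajc3, Pdia6 and Dnajb11 were not called. Dnajb9 was called with no match in its window. Of the 6 tested heat shock genes with a pair or more of GAA units in the window, Hspa1b and Bag3 were called higher and Dnaja1, Hsph1, Hspd1 and Hspe1 were not. The other called heat shock genes, Hspa8 and Hsp90aa1, had no window.

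Addition of G-CDs to LPS was compared with LPS alone. No heat shock or ER gene was called in this comparison, where 0.492% of all genes tested were called. That share is 57 genes, and it moved with single libraries, from 11 genes without LPS + G-CDs replicate 2 to 256 without LPS + G-CDs replicate 1. At an unadjusted p under 0.05, 1 of 38 genes passed, Dnajb4, against 15.2% of all genes. At an adjusted p under 0.05, voom on the recovered reads called 0 of the 38, as did each of the other alternatives. The lowest adjusted p of the 38 was 0.172. The median difference was 0.06 over the heat shock genes and 0.14 over the ER genes, against 0.02 over all genes. With single libraries left out these ran from 0.05 to 0.12 for heat shock and from 0.06 to 0.196 for ER genes. With TPM scaling the medians were -0.11 and -0.03, again above that of all genes, at -0.14. With quantile scaling they were -0.0033 and -0.04, below that of all genes, at 0.02. Libraries did not overlap for 9 genes that were higher and 4 that were lower with G-CDs, where 12.9% of all genes were higher and 15% lower.

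Dnajb4 (chr3:152178511-152210302, minus strand), a J-domain cochaperone of HSP70, was at 1.98, 2.04 and 1.99 FPKM in LPS and at 3.05, 2.98 and 3.35 in LPS + G-CDs. The groups did not overlap and the means differed 1.56-fold. The difference on the log2 scale was 0.46 ± 0.116, with a 95% interval from 0.20 to 0.72, an unadjusted p of 0.00341 and an adjusted p of 0.172. Over 20 alternatives its adjusted p ranged from 0.0661 to 0.519. With an unadjusted p under 0.01 and over 1.5-fold as the rule, Dnajb4 passed by the ratio of its FPKM means but not by its difference in log2(FPKM + 1).

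Of the 8 genes that LPS raised, 4 differed by less than 0.1 on the log2 scale between LPS + G-CDs and LPS. Hspa1b was at 6.42, 6.40 and 6.50 FPKM with G-CDs, a difference of 0.00 with an interval from -0.28 to 0.29. Herpud1 was at 122, 142 and 146 FPKM, with a difference of 0.09 and an interval from -0.30 to 0.48. Dnajb9 was at 10.9, 11.5 and 9.52 FPKM, with a difference of -0.01 and an interval from -0.52 to 0.50. Bag3 was at 34.5, 32.9 and 31.3 FPKM, with a difference of 0.03 and an interval from -0.27 to 0.32. The intervals still allow changes in either direction, the widest being that of Dnajb9.

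Among the other 4 genes raised by LPS, the libraries stood apart for 3. Over all genes tested, 12.9% were higher and 15% lower without overlap. Hsp90aa1 was at 416, 436 and 431 FPKM with G-CDs, above all LPS libraries, by 0.20 with an adjusted p of 0.409. Hspa5 was at 998, 1110 and 1206 FPKM, also above all LPS libraries, by 0.23 with an adjusted p of 0.46. Syvn1 was at 27.8, 24.4 and 23.6 FPKM, below all LPS libraries, with a difference of -0.18 and an adjusted p of 0.388. Hspa8 was at 1040, 1261 and 1579 FPKM and overlapped the LPS libraries. None of these differences passed the test.

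The largest differences among the ER genes came with a wide spread inside the LPS + G-CDs group. Creld2 was at 114, 151 and 223 FPKM and Sdf2l1 at 130, 184 and 251, against 107 ± 5.91 and 131 ± 17.1 in LPS. Manf was at 88.2, 123 and 172 FPKM, against 89.6 ± 3.16. In the opposite direction, Sel1l was at 29.7, 19.9 and 13.97 FPKM, Ern1 at 3.88, 1.97 and 1.26 and Atf6 at 17.4, 13.96 and 9.96, against 29.6 ± 1.12, 3.42 ± 0.291 and 17.8 ± 0.622 in LPS. In each of these 6 genes LPS + G-CDs replicate 1 lay near the LPS level and replicate 3 lay farthest from it. The adjusted p of the 6 ran from 0.334 to 0.381. The mitochondrial gene Hspe1 spread in the same way, at 111, 157 and 245 FPKM.

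The difference between replicates 3 and 1 of the LPS + G-CDs group moved with gene length over all genes. Its median was 0.72 on the log2 scale in the bin with a median length of 1119 bases and -0.65 in the bin with a median length of 11447 bases. The bin of the shortest genes, with a median of 330 bases, broke the trend at 0.22. Between replicates 3 and 1 of the control group the medians in the bins at 1119 and 11447 bases were 0.22 and -0.40, with 0.13 at 330 bases. In the LPS group they were 0.02 and -0.06, with -0.04 at 330 bases. Creld2 (1366 bases), Sdf2l1 (1108) and Hspe1 (1474) are short and differed by 0.96, 0.94 and 1.14, while Sel1l (8555), Ern1 (8173) and Atf6 (9231) are long and differed by -1.04, -1.11 and -0.75. Manf, with 3524 bases, differed by 0.96, and its model overlaps other genes. Spearman's rho between length and this difference was -0.523 over the 24 ER genes, -0.121 over the 14 heat shock genes and -0.486 over all genes tested, as a description across genes that share the same 2 libraries. Between control replicates 3 and 1 it was -0.556, -0.204 and -0.356, in the same order. Between LPS replicates 3 and 1 it was -0.367, 0.345 and -0.107. With the length trend of each library removed, the difference between G-CDs with LPS and LPS alone changed from 0.55 to 0.27 for Creld2, from 0.48 to 0.21 for Sdf2l1, from -0.52 to -0.32 for Sel1l, from -0.46 to -0.27 for Ern1, from -0.38 to -0.15 for Atf6 and from 0.46 to 0.38 for Manf. That of Dnajb4, with 8765 bases, changed from 0.46 to 0.67. The part of the length trend in these differences was not tested further.

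**Figure D4:**
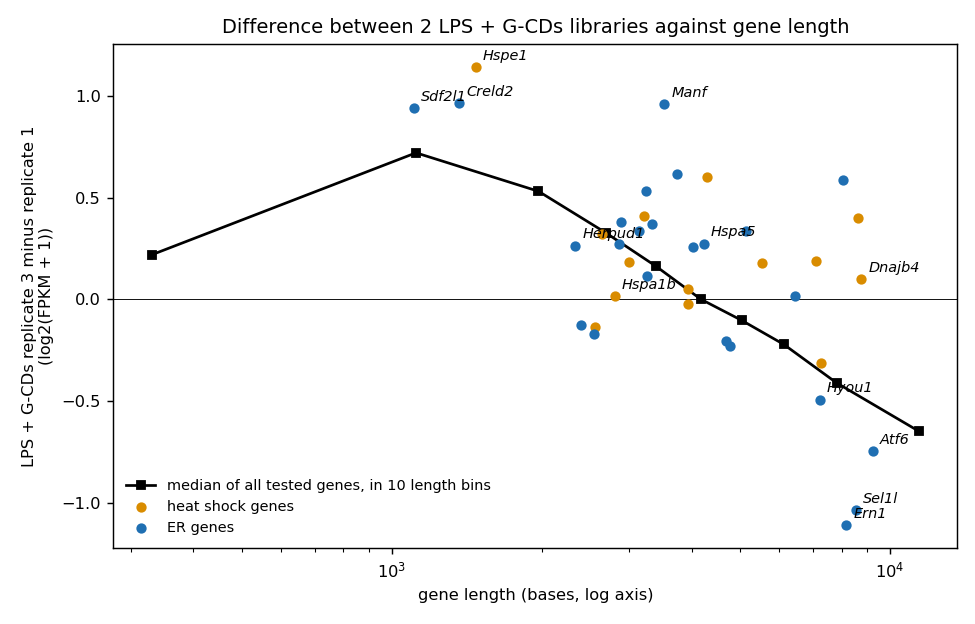
Difference in log2(FPKM + 1) between LPS + G-CDs replicate 3 and replicate 1 against gene length on a log axis, with 1 point per tested heat shock (orange) or ER (blue) gene and black squares at the medians of all tested genes in 10 length bins. The medians fall from 0.72 at 1119 bases to -0.65 at 11447 bases, with 0.22 in the shortest bin at 330 bases, and Hspe1, Creld2 and Sdf2l1 lie at the upper left with Sel1l, Ern1 and Atf6 at the lower right.

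The other ER and heat shock genes differed less between the 2 treated groups. Calr was at 546, 618 and 712 FPKM with G-CDs, above all LPS libraries, by 0.31 with an adjusted p of 0.353. Dnajc3 was at 27.4, 30.6 and 34.9 FPKM, also above them, by 0.29 with an adjusted p of 0.325. Pdia6 differed by 0.34, Dnajb1 by 0.26, Dnajb11 by 0.25, Pdia3 and Derl2 by 0.21, and P4hb and Pdia4 by 0.17. Hyou1 differed by -0.27 and Canx by -0.13. Dnaja1, Derl1, Hsp90b1, Hspa4, Hspa9, Edem1, Hsp90ab1, Xbp1, Hspd1, Hsph1 and Hsf1 each differed by less than 0.15 in either direction.

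The combined treatment was also set beside control. These values share their libraries with both comparisons above and are not a repeat of them. Of 38 genes, 10 were called, all higher (26.3%, against 25.3% of all genes tested, and 12.8% in the upward direction). At an unadjusted p under 0.05, 15 were higher and 0 lower, against 36.3% of all genes, and voom called 11 higher and 0 lower. The heat shock genes called were Hspa1b, Hspa8, Hsp90aa1, Dnaja1, Dnajb4 and Bag3, and the ER genes were Hspa5, Dnajb9, Herpud1 and Syvn1. TPM scaling gave 3 heat shock genes higher and, among the ER genes, 2 higher and 6 lower, where the median of all genes was -0.38 and the genes called in all went from 1488 higher and 1439 lower to 761 and 3218. Quantile scaling gave 3 ER genes higher and 2 lower. Herpud1 differed by 1.79 ± 0.172 with an adjusted p of 8.9e-05, and Hspa1b by 1.28 ± 0.125 with an adjusted p of 9.51e-05. Hspa8 differed by 1.27 ± 0.254 with an adjusted p of 0.00619, Hspa5 by 1.03 ± 0.185 with 0.00349 and Dnajb9 by 1.14 ± 0.224 with 0.00568. Hsp90aa1 differed by 0.86 ± 0.136 with an adjusted p of 0.00178, Syvn1 by 0.70 ± 0.117 with 0.00242 and Bag3 by 0.46 ± 0.13 with 0.029. Bag3 was called in 9 of 21 alternatives and lost its call without 7 of the 9 libraries in turn, all but control replicate 3 and LPS + G-CDs replicate 3, with adjusted p of 0.0535 to 0.0955. TPM scaling ended the calls of Syvn1, Dnajb9, Hsp90aa1, Bag3 and Dnaja1, with adjusted p of 0.269, 0.0509, 0.0578, 0.868 and 0.393. Relative to the median of all genes, these 5 differed by 0.67, 1.22, 0.80, 0.42 and 0.50 with TPM, against 0.67, 1.12, 0.83, 0.44 and 0.52 for the FPKM values. Quantile scaling ended those of Hspa5, Hsp90aa1 and Bag3, with 0.42, 0.431 and 0.17 and differences of 0.32, 0.25 and 0.30. It lowered the difference of Hspa8 to 0.55, still called.

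Dnajb4 and Dnaja1 were called against control in the LPS + G-CDs group, and not in the LPS group. For LPS against control, however, 4 of 20 alternatives called Dnajb4, voom among them with an adjusted p of 0.026, and 7 of 21 called Dnaja1. Dnajb4 was at 1.34, 1.63 and 1.205 FPKM in control and differed by 0.79 ± 0.116 with an adjusted p of 0.0011, in 20 of 20 alternatives. Dnaja1 was at 34.0, 39.8 and 45.1 FPKM with G-CDs and differed by 0.55 ± 0.139 with an adjusted p of 0.0192, in 15 of 21 alternatives. Without control replicate 1 or 2 or LPS + G-CDs replicate 2 its adjusted p was 0.0505 to 0.0721. The test between the treated groups themselves did not call either gene, with adjusted p of 0.172 and 0.529.

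Other genes of the same pathways were taken from companion lists. Among 21 tested regulators of the unfolded protein response, 7 were called between LPS and control, all higher. That is 33.3%, against 31.3% of all genes called and 15.8% called higher. The largest were Atf3, a stress transcription factor, from 4.48 ± 0.303 to 59.1 ± 4.92 FPKM, Eif2ak2, the double-stranded RNA kinase PKR, from 11.9 ± 1.41 to 52.2 ± 2.38, and Ppp1r15a, which reverses eIF2α phosphorylation, from 5.00 ± 0.527 to 23.0 ± 1.31. Their log2 differences were 3.45, 2.05 and 2.0, with the largest adjusted p over all alternatives at 0.00159. With G-CDs Atf3 was at 94 ± 12.1 FPKM, a difference of 0.66 from LPS with an adjusted p of 0.0901. It was the 1 regulator with an unadjusted p under 0.01 and over 1.5-fold in that comparison. Interferon signaling is known to raise Eif2ak2, and Atf3 and Ppp1r15a belong to several stress pathways. Trib3, a target of the PERK branch, was at 6.48 ± 2.02 FPKM in control, 16.1 ± 1.77 in LPS and 26.2 ± 4.77 in LPS + G-CDs. It was called against control in both treated groups, with log2 differences of 1.22 and 1.88 and adjusted p of 0.00199 and 0.000189, and not between them, with an adjusted p of 0.249.

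The shares of the other ER lists called were 27.3% for ERAD, 12.5% for translocation and 20.7% for folding, against 31.3% of all genes, and the differences from that share were not tested. Among 22 other ERAD genes, 5 were called higher in LPS, where 15.8% of all genes were, led by Nploc4, a cofactor of the p97 segregase, with a difference of 0.52, and Edem2 was called lower, with -0.51. With TPM scaling the counts were 0 higher and 4 lower. Among 24 genes of translocation into the ER, 3 were called, all higher. Srpr, a subunit of the signal recognition particle receptor, went from 69.0 ± 6.20 to 150 ± 2.22 FPKM, a difference of 1.11 that was called in 21 of 21 alternatives, followed by Sec61a1 with 0.58 and Stt3a with 0.37. With TPM scaling the counts were 1 higher and 6 lower. Among 29 other ER folding genes, 1 was called higher and 5 lower. Ero1l, the oxidase that recharges disulfide isomerases, differed by 0.69, while Erp29 fell by 1.64, Cnpy3, a chaperone of Toll-like receptors, fell by 1.204 and Cnpy4 fell by 0.95 on the log2 scale. The falls of Erp29, Cnpy3 and Cnpy4 were called in 21 of 21 alternatives.

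Among 36 other cytosolic chaperones and cochaperones, 6 were called higher and 5 lower in LPS than in control, 30.6% against 31.3% of all genes. Dnajb5 differed by 0.82 and Dnajb6 by 0.69, and Stub1, the ubiquitin ligase CHIP that acts on HSP70 clients, fell by 0.83 on the log2 scale. TPM scaling gave 1 higher and 12 lower. Among 10 other mitochondrial chaperones, 2 were called (20%), Hscb and Htra2, both lower. In the comparison of LPS + G-CDs with LPS, no gene of these 6 lists was called by limma or by voom, where limma called 0.492% of all genes, the share that moved with single libraries. Of their 142 tested genes, 14 were higher and 1 lower at an unadjusted p under 0.05, against 15.2% of all genes.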

How the data were processed

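Poly(A)-selected RNA of 9 libraries was sequenced by the authors, who deposited FPKM values per gene with coordinates and gene lengths. The processing notes name GRCm38 and mm10. The aligner, counter and test are not given in the sources used here. Coordinates equaled GENCODE mouse release 21 for 53499 of 54409 genes. The preparation describes no step that marks strand, so overlapping genes cannot be told apart. FPKM times length gave whole reads, to within 0.05 reads, for 100% of values. Those reads served depth and voom, and voom used the library sizes recovered from the FPKM values.

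The 11585 genes that reached 1 FPKM in 3 or more libraries were fitted as log2(FPKM + 1) with limma 3.58.1 in R 4.3.3, with lmFit and eBayes with trend, 1 model for 3 groups, two-sided, Benjamini-Hochberg adjusted over all genes tested. Tables were prepared with Python 3.11.15 and pandas 2.3.3. The fit was run on simulated data with independent noise and no length trend, so that run does not cover the length trend seen here. For a symbol on more than 1 row (102 symbols), the row with the highest mean was used. Shared sequence is the share of 50-base words of a gene's longest GENCODE transcript found in other genes. Control and LPS libraries with the same replicate number deviated together from their group means, with correlations of 0.103, 0.137 and 0.113. Each exceeded 0.1, so a replicate block was fitted as an alternative, though this does not show that the numbers are pairs. The labels do not say what a number stands for. All 40 genes could be named, and of each companion list at most the 3 largest calls in each direction. The 40 genes and the lists were chosen with earlier results of these data known. P-values judge a difference against the spread between libraries. In the main fit that spread was pooled over the 3 groups, whose spreads were unequal. The alternatives were pseudocount 0.1, other filters, TPM, median-of-ratios and quantile scaling, 6 libraries, eBayes without trend, a variance factor per group, voom, length-trend removal, another call rule, the block and each library left out.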

Additional observations from a re-analysis of the deposited data

How the results depend on the processing

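No called heat shock or ER gene reversed under any alternative, and none passed an adjusted p of 0.05 between LPS + G-CDs and LPS under any. For LPS against control, the count of heat shock genes called (4) was 2 with TPM, 2 with quantile scaling and 7 with a variance factor per group, and their median (0.33) was 0.11 with TPM and 0.18 with quantile scaling. The count of ER genes called (4) was 9 with TPM and 7 with quantile scaling, and their median (0.08) was -0.19 and -0.25. For LPS + G-CDs against LPS, the count of all genes called (57) was 288 at an unadjusted p under 0.01 and over 1.5-fold on the log2(FPKM + 1) scale, 25 with pseudocount 0.1, 27 with TPM, 25 with the 6 libraries alone and 92 with the length trend removed. Leaving out single libraries gave 11 (without LPS + G-CDs replicate 2) to 256 (without LPS + G-CDs replicate 1). The heat shock median (0.06) was -0.11 with TPM, and the ER median (0.14) was -0.0252 with TPM, -0.0381 with quantile scaling and 0.0294 with the length trend removed. For LPS + G-CDs against control, the count of all genes called (2927) was 1789 with 6 libraries and 1914 to 3245 with single libraries left out, the lowest without LPS + G-CDs replicate 2. The heat shock count (6) was 3 with TPM, with a median (0.47) of 0.0377 and, with quantile scaling, 0.15. The ER count (4) was 8 with TPM, with a median (0.07) of -0.37 and, with quantile scaling, -0.23. That median ran from 0.0125 to 0.174 with single libraries left out. TPM was built to equalize library sums, and moved the median of all genes to -0.23, -0.14 and -0.38 in these comparisons, and quantile scaling to equalize distributions. For the other shifts the cause was not tested.

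With replicate number as a block, the replicate block, LPS against control gave 5 heat shock and 5 ER genes (Dnaja1 and Sdf2l1 added) and 4104 genes in all, LPS + G-CDs against LPS gave 0, 0 and 53, and LPS + G-CDs against control gave 7, 5 and 3347. Same-numbered LPS and LPS + G-CDs libraries correlated at 0.0950, 0.0801 and 0.143, and control and LPS + G-CDs libraries at 0.280, 0.0575 and 0.653. Neither set was all above 0.1. Control and LPS + G-CDs libraries with different numbers correlated at -0.671 (3 with 1) to 0.504 (2 with 1). These values do not settle whether a number marks a pair. The block was fitted over all 9 libraries, so its added calls also rest on the LPS + G-CDs numbers. With single libraries left out, the LPS against control counts ran from 3 to 5 for heat shock and for ER genes. Hspa1a and Hspb1, with 0 to 11 reads per library, were not tested.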
